A study of Mus musculus with 12 samples.

Results

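The 78 genes described here encode nuclear-coded subunits of the oxidative phosphorylation machinery, and their RNA was measured in mammary glands of mice with and without Ccnd1, the gene of cyclin D1. They were chosen by name: every gene whose symbol on the array platform follows the Nduf, Sdh, Uqcr, Cox4 to Cox8 or Atp5 pattern, with Cox8b and Cox7a1 left out. That gave 34 genes of complex I, 4 of complex II, 8 of complex III, 15 of complex IV and 17 of complex V, out of 18193 genes with a probe set of their own. The complex was taken from the symbol, which counts Ndufa4 in complex I and Cox7a2l in complex IV. A membership with Ndufa4 in complex IV and without Cox7a2l is among the alternatives below. Each gene is represented by 1 probe set, the one with the highest mean over the 12 arrays, and all values are log2 intensities, on which a difference of 1 is a 2-fold difference.

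The animals were virgin, ovariectomized C57BL/6 females. The 4 groups of 3 were Ccnd1+/+ on placebo, Ccnd1+/+ on estradiol, Ccnd1-/- on placebo and Ccnd1-/- on estradiol, where the treated mice carried pellets of 0.72 mg estradiol with a release time of 60 days and were killed after 7 days. The labels give the genotypes as such and name no tissue-specific driver of the deletion. Age, the deleted allele, the pair of glands used and the handling of the lymph node are not stated in the labels. The series' title asks whether cyclin D1 sets the gland's transcriptional response to estrogen, a question that the interaction of genotype and treatment addresses.

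Oxidative phosphorylation passes electrons from NADH through complex I, and from succinate through complex II, to complex III and then to complex IV, which reduces oxygen. Complexes I, III and IV pump protons out of the mitochondrial matrix, and complex V, the ATP synthase, makes ATP as the protons return. Most subunits are encoded in the nucleus, and many of their genes are known targets of the transcription factors NRF1, GABPA (an ETS factor), YY1 and the estrogen-related receptors, which despite their name do not bind estradiol. In a mammary gland the machinery is present in every cell type, and brown fat cells and muscle fibres are rich in it.

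The start regions of 5 members, 1 per complex, are printed because they are among the genes whose values are described below and because they carry the letters of the factors just named. Windows from 250 bases before to 50 bases after the transcription start were taken from RefSeq (GRCm38.p6), in which 64 of the 78 genes had at least 1 window, 69 windows in all. The letters searched on both strands were GCGCA and GCGC with any base between them for NRF1, CCGGAAG for ETS factors, AAGATGG for YY1, AAGGTCA for the estrogen-related receptors and GGTCA and TGACC with any 3 bases between them for the estrogen response element, and the last pair of motifs share the letters GGTCA. The 200 bases before the start are shown 5′ to 3′ along the gene, with the NRF1 and ETS letters in capitals (CTTCCGG is the ETS motif on the other strand). Ndufs3 lies at chr2:90904722-90904921, Sdhd at chr9:50603850-50604049, Uqcrh at chr4:116075071-116075270, Cox6a1 at chr5:115348959-115349158 and Atp5e at chr2:174464102-174464301, all on the minus strand.
Ndufs3: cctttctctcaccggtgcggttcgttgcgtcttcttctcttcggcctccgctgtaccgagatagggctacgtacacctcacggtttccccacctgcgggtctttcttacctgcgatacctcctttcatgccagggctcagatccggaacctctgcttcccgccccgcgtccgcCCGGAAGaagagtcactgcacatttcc
Sdhd: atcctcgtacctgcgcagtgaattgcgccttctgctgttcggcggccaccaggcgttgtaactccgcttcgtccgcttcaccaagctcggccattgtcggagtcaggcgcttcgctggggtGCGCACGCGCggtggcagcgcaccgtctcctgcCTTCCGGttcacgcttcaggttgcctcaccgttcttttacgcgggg
Uqcrh: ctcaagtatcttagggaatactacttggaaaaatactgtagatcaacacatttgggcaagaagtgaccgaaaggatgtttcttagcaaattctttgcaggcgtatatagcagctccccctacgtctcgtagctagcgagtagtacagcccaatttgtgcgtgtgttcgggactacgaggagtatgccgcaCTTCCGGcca
Cox6a1: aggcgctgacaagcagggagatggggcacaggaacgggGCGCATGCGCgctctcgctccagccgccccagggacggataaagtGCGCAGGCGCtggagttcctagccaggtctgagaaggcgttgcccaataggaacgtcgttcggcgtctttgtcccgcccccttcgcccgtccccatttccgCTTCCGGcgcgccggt
Atp5e: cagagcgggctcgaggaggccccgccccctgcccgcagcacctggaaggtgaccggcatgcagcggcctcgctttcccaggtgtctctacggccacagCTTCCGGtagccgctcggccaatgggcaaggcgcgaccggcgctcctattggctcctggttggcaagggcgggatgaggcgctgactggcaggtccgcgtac

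The NRF1 letters were present in 16 of the 69 member windows (23.2%) and in 6.38% of the 21262 windows of all protein-coding genes. The ETS letters were in 17 windows (24.6%, against 11.6%), the YY1 letters in 10 (14.5%, against 6.24%) and the letters of the estrogen-related receptors in 8 (11.6%, against 4.08%). None of the 69 windows held the full estrogen response element, and 0.0517% of all windows did. Sdhd, a membrane anchor of complex II, had the NRF1 letters between 79 and 70 bases before its start and the ETS letters between 46 and 40 bases before it. Cox6a1 had the NRF1 letters at 2 places. These matches describe the letters in a window and say nothing about binding in the gland.

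The quality of the arrays bears on every value below. The medians of the arrays were 5.7 to 5.8, the correlation across genes between any pair was 0.937 to 0.993, and the most similar array was one of the same group for 8 of the 12. Ccnd1 checked the genotype labels: its 6 Ccnd1-/- arrays lay between 7.24 and 7.68 and its 6 Ccnd1+/+ arrays between 8.50 and 10.8 (exact two-sided permutation p = 0.00216 over 924 arrangements, the smallest these can give). Markers of luminal epithelium (13 genes), white adipocytes (8), brown adipocytes (10), skeletal muscle (14) and T and B cells (8 each) were present, in that none of these markers lay under the lower quartile of its array on all 12 arrays. The arrays that stood apart for the subunit genes are the first of Ccnd1-/- placebo and the first of Ccnd1-/- estradiol, and the median differences of the subunit genes that use them are also given without them.

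Most subunit genes were expressed at a high level. Of the 78, 74 lay above the lower quartile of every array, 2 fell under it on some arrays, and 2 were under it on all 12: Cox7b2, a testis form, and the only probe set that names Ndufb4 alone. The brighter Ndufb4 probe sets also name its copies and were not used, so a value given for Ndufb4 is that of a dim probe set. The standard deviation of a member over the 12 arrays had a median of 0.23, close to the 0.24 of all genes, and ranged from 0.097 for Atp5a1 and Cox6a1 to 1.5 for Atp5l. Atp5a1 encodes the alpha subunit of the ATP synthase, and its 12 values lay between 13.20 and 13.46. Its other probe sets, which were dimmer, differed by 0.40 and -0.14 with estradiol in Ccnd1-/-, against 0.02 on the one used. Atp5l encodes a small membrane subunit of the ATP synthase, has a single probe set here, and spanned 6.71 to 10.65.

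The level of the whole set of subunit genes was summarised as the mean of their values after each gene was centred over the 12 arrays. This score was -0.07, 0.00 and 0.24 in the 3 Ccnd1+/+ placebo arrays and -0.18, -0.10 and 0.10 in the 3 Ccnd1+/+ estradiol arrays. In Ccnd1-/- it was -0.39, 0.15 and -0.09 on placebo and 0.37, -0.05 and 0.02 on estradiol. The 4 groups overlapped: the means were 0.06 ± 0.16 (SD, n = 3), -0.06 ± 0.15, -0.11 ± 0.27 and 0.11 ± 0.23 in that order. The lowest and the highest array were both from Ccnd1-/- mice. Ccnd1-/- placebo array 1 held the lowest of the 12 values for 42 of the 78 members, against 9.66% of all genes, and Ccnd1-/- estradiol array 1 held the highest for 48 of 78, against 12%. The members moved together within an array: 4 of the 78 lay above their own mean in the former and 74 in the latter. Counts of members above or below 0 are therefore not counts of independent observations. The within-group SD of the score was 0.21.

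**Figure D1:**
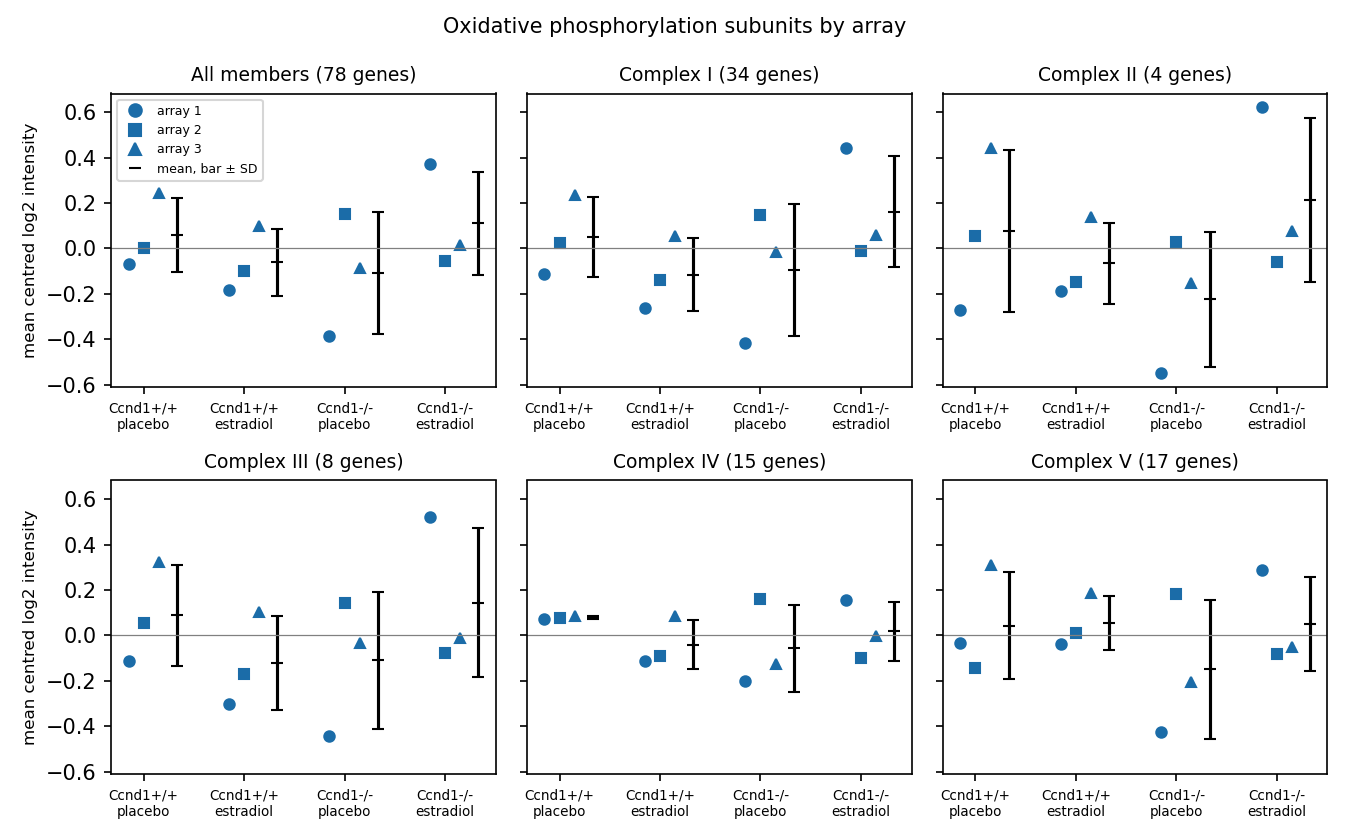
Mean centred log2 intensity of the 78 subunit genes and of each complex (y axis) in the 4 groups (x axis); each symbol is 1 array, and the bar is the group mean ± SD (n = 3). The 4 groups overlap in the score of all members, with the first Ccnd1-/- placebo array lowest (-0.39) and the first Ccnd1-/- estradiol array highest (0.37).

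In Ccnd1+/+ glands, the estradiol minus placebo difference was below 0 for 61 of the 78, against 48.0% of all genes, and its median was -0.13 (all genes 0.01). With each array shifted to the same median, 72 of the 78 were below 0, and the median of all genes moved to -0.11. No member passed the test: limma called 0 of 78 at an adjusted p under 0.05, where it called 1.88% of all genes, and 5 members had an unadjusted p under 0.05, all of them lower (3.25% of all genes). The medians were -0.19 for complex I, -0.15 for complex II, -0.23 for complex III, -0.10 for complex IV and -0.10 for complex V. All 8 complex III genes and 27 of the 34 complex I genes were below 0. In bulk tissue, a smaller share of cells rich in these transcripts and less of the transcripts per cell cannot be told apart.

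In complex I, Ndufb6, an accessory subunit of the membrane arm, read 11.60, 11.67 and 11.62 on placebo and 11.23, 11.30 and 11.28 on estradiol. All 3 estradiol arrays thus lay below all 3 placebo arrays, and the difference was -0.36 ± 0.12 (SE, limma adjusted p = 0.20). Ndufs8, a core subunit that carries iron-sulfur clusters, read 12.86, 13.12 and 12.91 on placebo and 12.51, 12.69 and 12.69 on estradiol, a difference of -0.34 ± 0.16 with no overlap. Ndufv2, an iron-sulfur subunit of the module that oxidises NADH, differed by -0.33 ± 0.14, from 13.03 ± 0.12 (SD, n = 3) to 12.70 ± 0.09. The largest complex I difference downward was that of Ndufs1, the largest core subunit (-0.43 ± 0.29), but its arrays overlapped. Ndufa7 had the largest difference upward in complex I, 0.33.

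In the other complexes, Uqcrc2, a core protein of complex III, read 12.35, 12.71 and 12.67 on placebo and 12.13, 12.22 and 12.27 on estradiol (-0.37 ± 0.17). Cox5a, a matrix-side subunit of complex IV, read 12.99, 13.09 and 12.93 on placebo and 12.72, 12.73 and 12.71 on estradiol. Its difference was -0.28 ± 0.09 (limma adjusted p = 0.20), and the 3 estradiol arrays were almost equal. Atp5pb, the b subunit of the stalk that holds the ATP synthase in place, behaved alike, with 12.79, 12.89 and 12.84 on placebo and 12.58, 12.60 and 12.58 on estradiol (-0.26 ± 0.10). The largest difference below 0, that of the small complex IV subunit Cox7c (-0.62 ± 0.29), came with overlapping arrays. Atp5l had the largest above 0 (0.99 ± 1.0), and its placebo arrays spread from 6.81 to 10.65.

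Counted over all members, 15 had their 3 estradiol arrays below their 3 placebo arrays in Ccnd1+/+, against 5.11% of all genes, and 0 had them above, against 11.9%. Of the 15, 10 were complex I genes: Ndufa13, Ndufb4, Ndufb5, Ndufb6, Ndufb7, Ndufb8, Ndufb11, Ndufc2, Ndufs8 and Ndufv2. The others were Uqcrb and Uqcrc2 of complex III, Cox5a of complex IV, and Atp5h and Atp5pb of complex V. Complex II had none. The median depended on single arrays: it was -0.08, with 30 members above 0, without Ccnd1+/+ placebo array 3, -0.09 without estradiol array 1, and -0.21 without estradiol array 3. The 15 became 36 (9.12% of all genes) without placebo array 1 and 35 (9.1%) without estradiol array 3, and without placebo array 3 19 lay wholly lower (19.7%) and 10 wholly higher (28.9%). Another probe set of the same gene had the opposite sign for 13 of the 48 members that had one, among them Ndufb8, Ndufb11, Ndufc2 and Atp5h of the 15.

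Markers of other cell types moved in the same comparison. The 10 brown adipocyte markers had a median difference of -1.02, with 9 below 0, and the score over them was -0.20, 1.13 and 1.02 on placebo and -1.67, -0.06 and 0.20 on estradiol. These markers include Cox7a1 and Cox8b, the subunit genes left out by the rule, and Ppargc1a, a coactivator of subunit genes. The brown adipocyte values here and below are therefore not independent of the machinery itself. The 13 luminal epithelium markers had a median of 1.64, with 12 above 0, and their score was higher in each estradiol array (1.04 to 2.44) than in any placebo array (-0.05 to 0.45). The T and B cell score was 2.39, 1.77 and -2.06 on placebo and -2.16, 0.75 and -2.23 on estradiol. All 8 basal epithelium, 9 fibroblast and 9 macrophage markers were above 0, with medians of 1.56, 0.77 and 1.81, while 12 of 14 muscle markers were below 0 (median -0.91) and white adipocyte markers had a median of 0.06. The part of these cell types and of RNA quality in these subunit differences was not tested.

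Estradiol in Ccnd1-/- glands gave differences of the other sign. They were above 0 for 69 of the 78 members, against 51.0% of all genes, with a median of 0.17 (all genes 0.01). Limma called 0 of 78 at an adjusted p under 0.05 (0.0989% of all genes), and 6 had an unadjusted p under 0.05, all higher (5.79% of all genes). The medians were 0.21 for complex I, 0.49 for complex II, 0.25 for complex III, 0.09 for complex IV and 0.14 for complex V. All 4 complex II genes and 33 of the 34 complex I genes were above 0.

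The ATP synthase held the members with the smallest p. Atp5g1, 1 of the 3 genes of the proton-carrying c ring, read 7.99, 8.66 and 7.96 on placebo and 8.85, 8.83 and 8.72 on estradiol, a difference of 0.59 ± 0.19 (limma adjusted p = 0.46). Atp5e, the epsilon subunit of the rotor, read 10.08, 10.52 and 10.23 on placebo and 11.08, 10.74 and 10.67 on estradiol (0.55 ± 0.19). In both genes all estradiol arrays lay above all placebo arrays. Atp5o, which joins the stalk to the catalytic head, had the largest difference (0.69 ± 0.29), but the second placebo array (10.64) lay above the second estradiol array (10.59). Atp5b, the catalytic beta subunit, differed by 0.23 ± 0.15 with no overlap.

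The 4 genes of complex II, which also serves the citric acid cycle as succinate dehydrogenase, were all higher on estradiol in Ccnd1-/-. Sdhb, the iron-sulfur subunit, read 12.20, 12.56 and 12.46 on placebo and 13.08, 12.63 and 12.67 on estradiol (0.39 ± 0.18, no overlap). Sdhd and Sdhc, the membrane anchors, differed by 0.60 ± 0.29 and 0.59 ± 0.30, and Sdha, the flavoprotein that binds succinate, by 0.18 ± 0.19. For these 3 the groups overlapped. Without both first Ccnd1-/- arrays, the differences of Sdhb and Sdhd were each 0.14, and those of Atp5e, Ndufa6 and Ndufa7 were 0.32, 0.23 and 0.35. Sdhd shows how: it read 10.51, 11.37 and 11.07 on placebo and 12.02, 11.16 and 11.56 on estradiol, so its lowest and highest values are those of the first array of each group. In complex I, Ndufa6 (0.61 ± 0.24) and Ndufa7 (0.64) had no overlap, while Ndufs3, a core subunit, differed by 0.59 ± 0.26 with overlap. Uqcrh, the hinge protein of complex III, differed by 0.36 ± 0.18.

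In all, 7 members (8.97%) had their 3 estradiol arrays above their 3 placebo arrays in Ccnd1-/-, close to the 8.37% of all genes. They were Atp5b, Atp5e, Atp5g1, Ndufa6, Ndufa7, Ndufb4 and Sdhb. The count of members without overlap therefore does not set the subunit genes apart from all genes here. No member had its 3 estradiol arrays below its 3 placebo arrays, against 5.09% of all genes. Those wholly higher numbered 26 (22.9% of all genes) without placebo array 2, 16 (14.5%) without estradiol array 2 and 11 (10.7%) without placebo array 3. The median of 0.17 rested on 2 arrays. Without Ccnd1-/- placebo array 1 it was 0.04, with 45 members above 0, and without Ccnd1-/- estradiol array 1 it was 0.06, with 52 above 0. With both left out, an alternative added after the data had been seen, it was -0.07 with 27 above 0, and with 2 arrays a group 8 members lay wholly higher (13.1% of all genes) and 25 wholly lower (14.2%). Complex II alone kept a median above 0 then (0.13, 3 of 4 genes), while complexes I, III, IV and V were at -0.06, -0.10, -0.15 and -0.07.

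**Figure D2:**
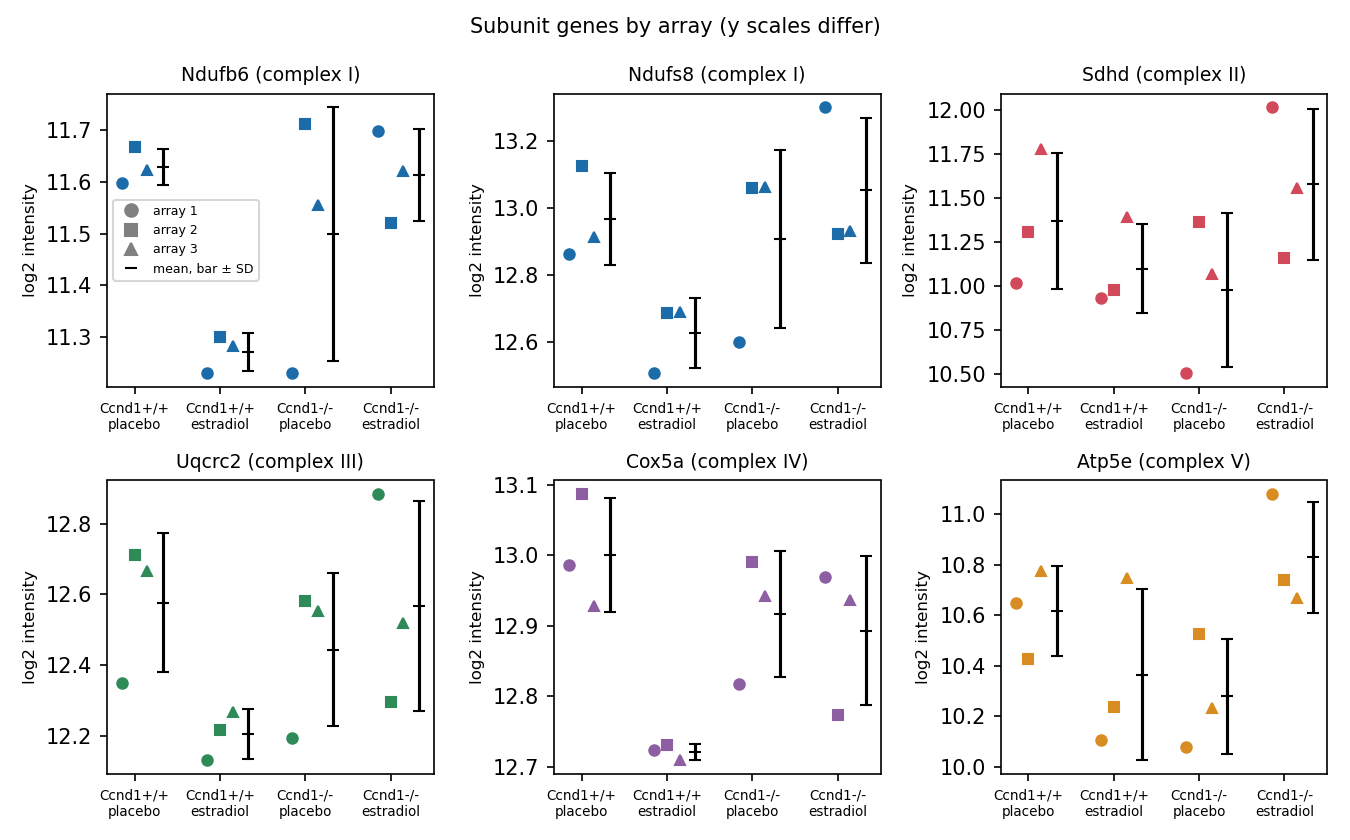
Log2 intensity (y axis, scales differ) of 6 subunit genes in the 4 groups (x axis); each symbol is 1 array, and the bar is the group mean ± SD (n = 3). Ndufb6, Ndufs8, Uqcrc2 and Cox5a have their 3 Ccnd1+/+ estradiol arrays below the 3 Ccnd1+/+ placebo arrays, and in Sdhd the first Ccnd1-/- placebo array (10.51) and the first Ccnd1-/- estradiol array (12.02) are the extremes.

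Markers of brown fat, muscle and lymphocytes also varied within both Ccnd1-/- groups. The brown adipocyte score was -1.23, -0.20 and 0.90 in the Ccnd1-/- placebo arrays and 2.08, -1.25 and -0.72 in the Ccnd1-/- estradiol arrays, and the skeletal muscle score was -3.08, 2.23 and -3.38 on placebo and 2.22, -2.67 and -1.10 on estradiol. Ucp1, which defines brown adipocytes, read 9.06, 9.29 and 12.27 in the placebo arrays. It read 13.13 in the first estradiol array and 7.37 and 7.60 in the others, a difference of -0.84 ± 1.67 (SE). Of the 10 brown adipocyte markers, 6 had an estradiol difference above 0 and 4 below. The T and B cell score was -2.22 in that first estradiol array and 1.51 and 0.31 in the others. With both arrays left out, the 10 brown adipocyte markers went from a median difference of 0.20 to -1.31, and the 14 muscle markers from 1.0 to -1.29. The difference between the 3′ and 5′ control probe sets of Gapdh, which rises as RNA breaks down, was 3.20 to 3.31 on placebo and 3.22 to 3.56 on estradiol. The part of all these cell types and of RNA quality in the subunit values was not tested.

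**Figure D3:**
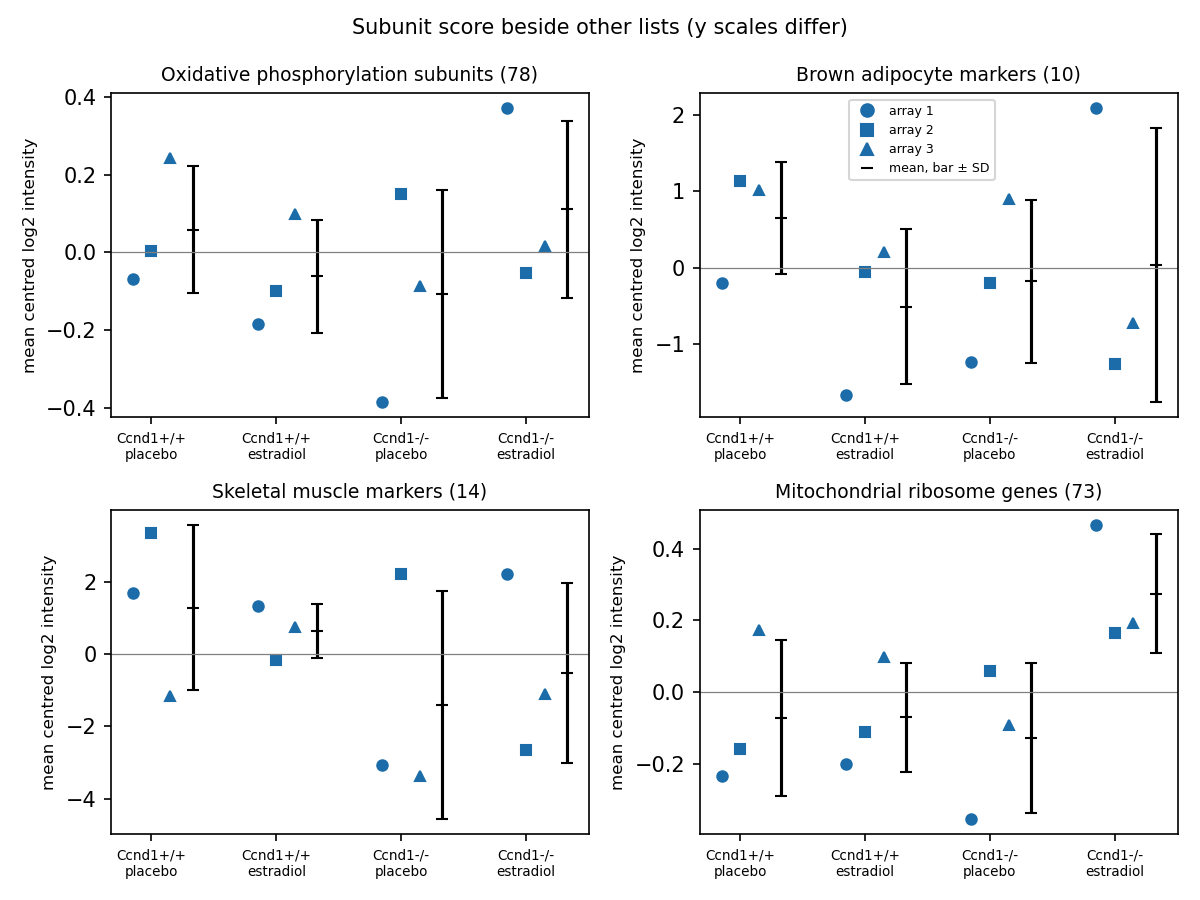
Mean centred log2 intensity (y axis, scales differ) of the 78 subunit genes, 10 brown adipocyte markers, 14 skeletal muscle markers and 73 mitochondrial ribosome genes in the 4 groups (x axis); each symbol is 1 array, and the bar is the group mean ± SD (n = 3). The first Ccnd1-/- estradiol array is highest of all 12 for the subunits (0.37), the brown adipocyte markers (2.08) and the mitochondrial ribosome genes (0.47), but not for the muscle markers (2.22), where Ccnd1+/+ placebo array 2 is (3.34). The brown adipocyte markers include Cox7a1 and Cox8b, subunit genes outside the 78, and Ppargc1a.

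The interaction, the Ccnd1-/- difference minus the Ccnd1+/+ difference, asks whether the genotypes responded differently. It was above 0 for 73 of the 78 members, against 50.1% of all genes, with a median of 0.33 (all genes 0.00). Limma called 0 of 78 (0.011% of all genes), and 5 had an unadjusted p under 0.05, all above 0 (1.5% of all genes). The share above 0 was 34 of 34 in complex I, 4 of 4 in complex II, 8 of 8 in complex III, 13 of 15 in complex IV and 14 of 17 in complex V, with medians of 0.44, 0.56, 0.49, 0.13 and 0.20. Gene by gene, 54 of the 78 were below 0 in Ccnd1+/+ and above 0 in Ccnd1-/-, a combination seen in 18.8% of all genes. That count was 32 without Ccnd1-/- placebo array 1 (18.6% of all genes), 38 without Ccnd1-/- estradiol array 1 (20.1%) and 18 without both (20.9%). The reverse was seen for Atp5l and Cox4i2, against 19.9%. Marker interactions were above 0 for 10 of 10 brown adipocyte (median 1.21), 12 of 14 muscle (1.79), 8 of 8 T cell (1.28) and 7 of 8 B cell markers (1.15). Below 0 were 13 of 13 luminal (-1.79), 8 of 8 basal epithelium (-1.27), 9 of 9 fibroblast (-0.98) and 9 of 9 macrophage markers (-1.20). White adipocyte markers had 6 of 8 below 0 (-0.10). The part of these cell types and of RNA quality in the subunit interactions was not tested.

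**Figure D4:**
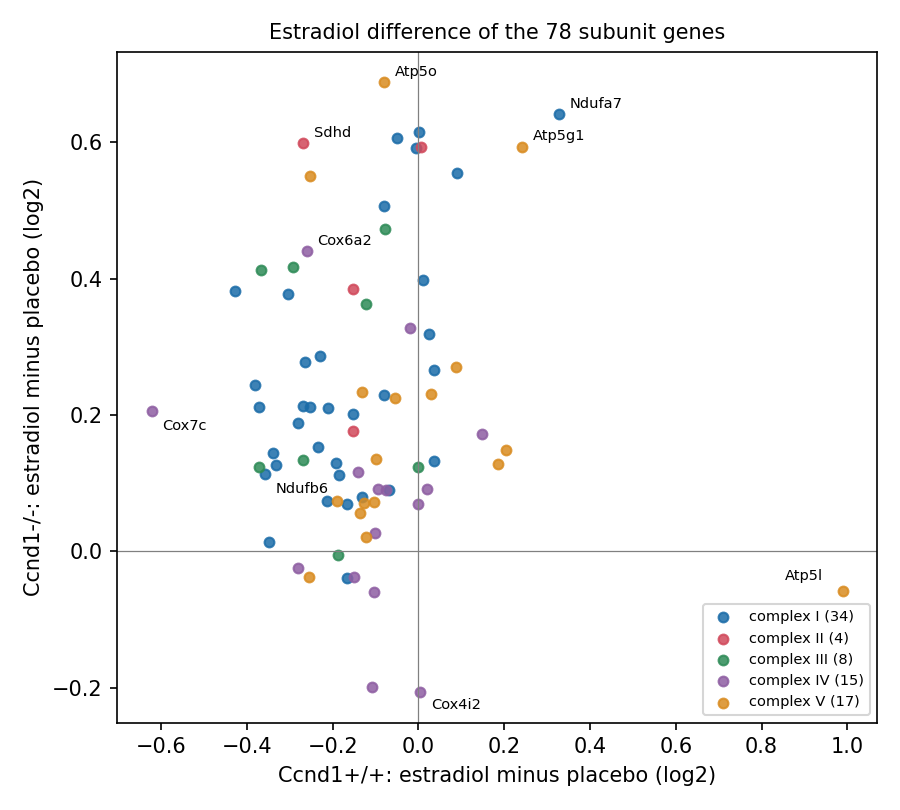
Estradiol minus placebo difference (log2) of each of the 78 subunit genes in Ccnd1+/+ (x axis) and in Ccnd1-/- (y axis), coloured by complex; the 2 axes share no array. Most genes (54) lie in the upper left part, below 0 in Ccnd1+/+ and above 0 in Ccnd1-/-, and Atp5l lies far to the right.

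The member with the smallest interaction p was Ndufb4 on its dim probe set, at 0.62 ± 0.17 (limma adjusted p = 0.42). Atp5e followed at 0.80 ± 0.27 (limma adjusted p = 0.60), made up of -0.25 in Ccnd1+/+ and 0.55 in Ccnd1-/-. Ndufb6 (0.47 ± 0.17), Ndufv2 (0.46 ± 0.20) and Ndufc2 (0.35 ± 0.16) made up the other three with an unadjusted p under 0.05, and in these the Ccnd1+/+ side was the larger for Ndufb6 (-0.36 against 0.11) and Ndufv2 (-0.33 against 0.13). The largest interaction above 0 was that of Sdhd, 0.87 ± 0.41, which was 0.41 without both first Ccnd1-/- arrays, where that of Atp5e was 0.58. The lowest was that of Atp5l, -1.05 ± 1.42. Ndufs1 in complex I (0.81 ± 0.42), Uqcrc1 in complex III (0.78 ± 0.41) and Cox7c in complex IV (0.83 ± 0.41) led their complexes. Leaving out any 1 array kept the median above 0, between 0.21 and 0.45. It was lowest without Ccnd1-/- placebo array 1 (0.21, 66 above 0), 0.23 without Ccnd1-/- estradiol array 1 (66 above 0), and 0.11 with both left out (57 above 0), where complex IV was at -0.02 and complex V at 0.03.

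**Figure D5:**
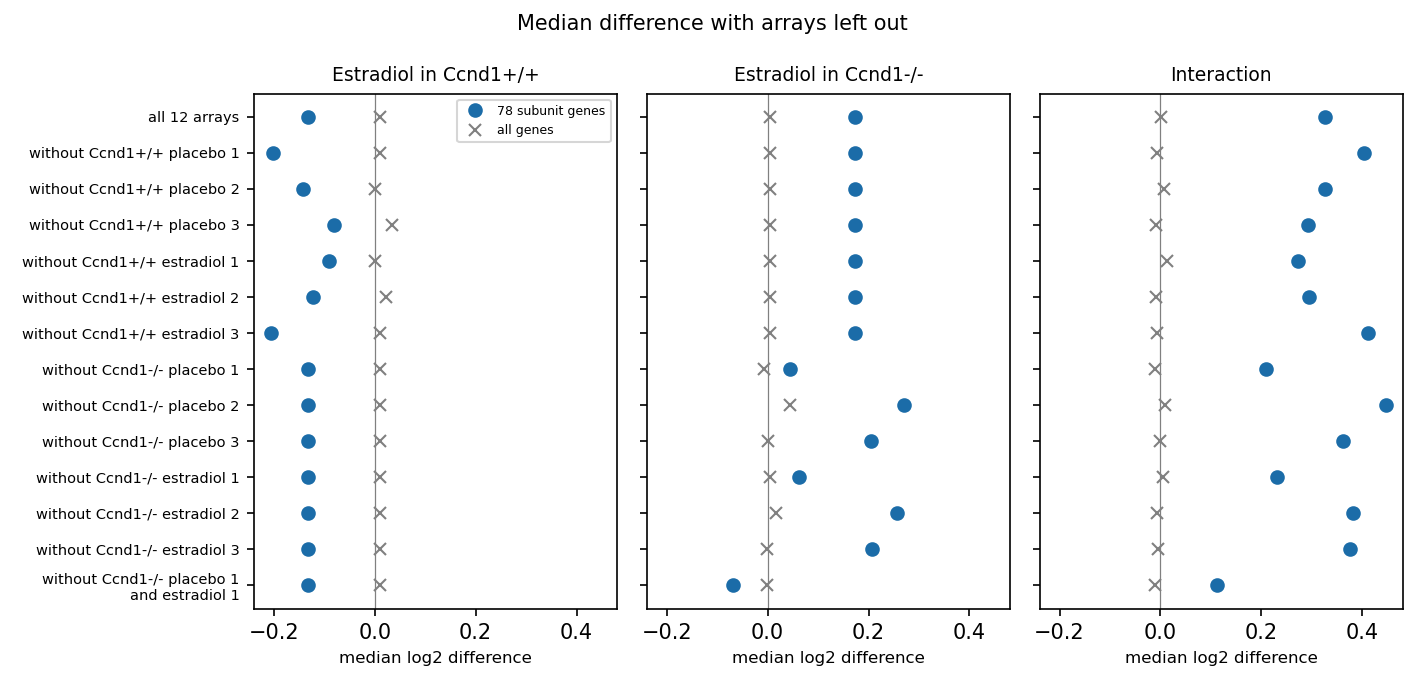
Median log2 difference (x axis) of the 78 subunit genes (circles) and of all genes (crosses) in 3 comparisons, with all 12 arrays and with the arrays named on the y axis left out. The Ccnd1-/- median goes from 0.17 to -0.07 when the first array of both Ccnd1-/- groups is left out, and the interaction median from 0.33 to 0.11.

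The genotypes were also compared under each treatment, with the same arrays as above. On placebo, the Ccnd1-/- minus Ccnd1+/+ difference was below 0 for 68 of the 78 members, against 45.7% of all genes, with a median of -0.13 (all genes 0.02). Limma called 0 members and 0.0% of all genes, and 0 members had an unadjusted p under 0.05 (2.03% of all genes). No member's groups were free of overlap, against 4.9% of all genes higher and 1.81% lower in Ccnd1-/-. The largest differences were those of Atp5l (-1.11 ± 1.0) and of Cox6a2, the heart and muscle form of complex IV subunit 6a (-0.85 ± 0.53). Cox6a2 read 8.18, 9.01 and 7.37 in Ccnd1+/+ and 6.82, 8.43 and 6.77 in Ccnd1-/-, low in the 2 Ccnd1-/- arrays with low muscle scores. The median was 0.01, with 41 members above 0, without Ccnd1-/- placebo array 1, and -0.23 without array 2. In the same comparison 13 of 14 skeletal muscle markers (median -2.86), 8 of 10 brown adipocyte markers (-1.01) and 11 of 13 luminal epithelium markers (-0.48) were below 0. Above 0 were 8 of 9 fibroblast (0.23), 8 of 9 macrophage (0.17), 5 of 8 basal epithelium (0.03) and 5 of 8 white adipocyte markers (0.01). The T and B cell medians were -0.04 and -0.05. The part of all these cell types and of RNA quality in the subunit differences on placebo was not tested.

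On estradiol, the Ccnd1-/- minus Ccnd1+/+ difference was above 0 for 65 of the 78 members, against 55.2% of all genes, with a median of 0.23 (all genes 0.03), and for 73 with each array shifted to the same median (all genes 0.19). Limma called 0 of 78 (1.12% of all genes), and 11 had an unadjusted p under 0.05, all higher (4.67% of all genes). The medians of complexes I to V were 0.30, 0.27, 0.32, 0.07 and 0.12. In 18 members all 3 Ccnd1-/- arrays lay above all 3 Ccnd1+/+ arrays, against 10.5% of all genes, and 11 of the 18 were complex I genes. Atp5l alone lay wholly below (11.8% of all genes), at 9.82, 9.89 and 9.93 in Ccnd1+/+ and 8.99, 7.23 and 6.95 in Ccnd1-/-. Without Ccnd1-/- estradiol array 1 the median was 0.11, with 55 above 0, and 18 members lay wholly higher (16.8% of all genes) and 9 wholly lower (17.8%). Those wholly higher numbered 51 (17.9%) without Ccnd1+/+ estradiol array 3 and 32 (18.8%) without Ccnd1-/- estradiol array 2. In the same comparison 12 of 13 luminal epithelium markers were lower in Ccnd1-/- (median -2.40) and 8 of 10 brown adipocyte markers higher (median 0.66). Lower in Ccnd1-/- were also 12 of 14 muscle (median -1.25), 7 of 8 basal epithelium (-1.23), 9 of 9 fibroblast (-0.74) and 9 of 9 macrophage markers (-0.87), while 8 of 8 T cell and 8 of 8 B cell markers were higher (1.05 and 1.07). The Gapdh difference between 3′ and 5′ probe sets was 2.41 to 3.09 in the Ccnd1+/+ estradiol arrays and 3.22 to 3.56 in the Ccnd1-/- estradiol arrays, without overlap. It was 2.10 to 3.26 in Ccnd1+/+ on placebo. The part of these cell types and of RNA quality in the subunit differences was not tested.

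Ndufb4 came nearest to the threshold here, at 3.93, 3.89 and 3.87 in Ccnd1+/+ and 4.37, 4.40 and 4.65 in Ccnd1-/- (0.58 ± 0.12, limma adjusted p = 0.055). These values lie under the lower quartile of the arrays, so the size of the difference is that of a dim signal, and without Ccnd1+/+ placebo array 3 its adjusted p was under the threshold. Among bright genes, Ndufb10, an accessory subunit of the membrane arm, read 11.43, 11.58 and 11.88 in Ccnd1+/+ and 12.36, 11.88 and 12.16 in Ccnd1-/- (0.50 ± 0.18, limma adjusted p = 0.25), where the highest Ccnd1+/+ array lay barely above the lowest Ccnd1-/- array. Ndufb6 and Ndufs8 were higher by 0.34 ± 0.12 and 0.43 ± 0.16 with no overlap, which for Ndufb6 sets 11.70, 11.52 and 11.62 against the low Ccnd1+/+ estradiol values given above. Averaged over both treatments or both genotypes, limma again called 0 members (0.0% of all genes for genotype and 1.58% for estradiol), with 3 members at an unadjusted p under 0.05 in each (16.4% of all genes for estradiol and 10.1% for genotype).

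Several subunits come in tissue forms, and these varied separately. Cox6a1, the general form of subunit 6a, was among the steadiest members on the probe set used, between 13.66 and 13.97, while Cox6a2, the muscle form, spanned 6.77 to 9.01. The other Cox6a1 probe set, which was dimmer, differed by -0.21 between the genotypes on placebo, against 0.005 on the one used. Cox4i1, the general form of subunit 4, differed by -0.00 ± 0.15 with estradiol in Ccnd1+/+ and by 0.07 ± 0.15 in Ccnd1-/-. Cox4i2, its lung form, was dim, between 4.86 and 5.37, and had the most negative estradiol difference of all members in Ccnd1-/- (-0.21 ± 0.12). Among the 3 c ring genes, whose mature proteins are identical, Atp5g1 was higher on estradiol by 0.24 ± 0.19 in Ccnd1+/+ and by 0.59 ± 0.19 in Ccnd1-/-. On the probe sets used, all 3 were above 0 in both genotypes. A dimmer probe set of Atp5g2 was at -0.21 in Ccnd1+/+ and 0.23 in Ccnd1-/-. Cox7a2l, an assembly protein of respiratory supercomplexes that carries a subunit-like name, was below 0 in both genotypes on its probe set used (-0.11 ± 0.18 and -0.20 ± 0.18). Of its other probe sets, 1 was at -0.09 and -0.11, and 1 at 0.08 and 0.05. The muscle and brown fat forms left out by the rule, Cox7a1 and Cox8b, differed by -0.93 ± 0.85 and -0.49 ± 0.52 with estradiol in Ccnd1+/+, and by -0.06 ± 0.85 and -0.10 ± 0.52 in Ccnd1-/-.

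Genes that build, feed or regulate the machinery were read from lists. Of 43 assembly factors, which help the complexes form, 28 were below 0 with estradiol in Ccnd1+/+ (median -0.07) and 41 above 0 in Ccnd1-/- (median 0.41), and limma called 0 in both. In Ccnd1-/- the smallest p was that of Cox18, which inserts a complex IV subunit into the membrane (0.72 ± 0.19, limma adjusted p = 0.34). Of 17 citric acid cycle genes, 16 were below 0 in Ccnd1+/+ (median -0.30) and 16 above 0 in Ccnd1-/- (median 0.21), with 0 called. Pdhb, a subunit of pyruvate dehydrogenase, differed by -0.45 ± 0.18 in Ccnd1+/+. Of 15 fatty acid oxidation genes, 10 were below 0 in Ccnd1+/+ and 14 above 0 in Ccnd1-/-, with 0 called. With both first Ccnd1-/- arrays left out, the Ccnd1-/- medians of these lists were 0.14 for assembly factors, -0.06 for the citric acid cycle and -0.25 for fatty acid oxidation.

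The mitochondrial ribosome translates the few subunits encoded in the mitochondrion. In Ccnd1+/+ the median estradiol difference of its 73 genes was 0.01, with 40 above 0, and that of the subunits was -0.13, values whose difference was not tested. In Ccnd1-/- the median of the 73 was 0.37, with 72 above 0. Their score was -0.35, 0.06 and -0.09 in the Ccnd1-/- placebo arrays and 0.47, 0.16 and 0.19 in the Ccnd1-/- estradiol arrays, which did not overlap. Limma called 0 of them in both genotypes (smallest adjusted p 0.25 and 0.26). The Ccnd1-/- median was 0.16, with 62 above 0, when both first arrays were left out.

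Among 15 regulators of mitochondrial biogenesis, 14 were below 0 with estradiol in Ccnd1+/+ (median -0.28) and 9 in Ccnd1-/- (median -0.10), with 0 called. Gabpa, an ETS factor, differed by -0.66 ± 0.18 in Ccnd1+/+ (limma adjusted p = 0.096) and by -0.41 ± 0.18 in Ccnd1-/-. Ppargc1a, the coactivator that switches on these genes in brown fat, read 4.78, 6.44 and 7.30 on placebo and 4.14, 5.19 and 5.87 on estradiol in Ccnd1+/+, and was highest of all arrays in the first Ccnd1-/- estradiol array (7.84). Nrf1 differed by -0.50 ± 0.43 and -0.51 ± 0.43. Of 9 genes for electron carriers and nucleotide exchange, 1 passed the test in Ccnd1+/+, where 1.88% of all genes did. It was Atpif1, which inhibits the ATP synthase when it runs backwards and rose by 0.97 ± 0.18 on the log2 scale (limma adjusted p = 0.025). Its arrays read 9.86, 9.58 and 9.56 on placebo and 10.63, 10.66 and 10.61 on estradiol. In Ccnd1-/- it read 9.97 to 10.1 on placebo and 9.79, 10.45 and 9.71 on estradiol, and the interaction was -1.01 ± 0.25 (limma adjusted p = 0.34). The part of cell types and of RNA quality in the Atpif1 differences was not tested. Cycs, cytochrome c, differed by -0.49 ± 0.13 in Ccnd1+/+ (limma adjusted p = 0.090) and by 0.10 ± 0.13 in Ccnd1-/-.

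Of 14 glycolysis genes, 9 were below 0 with estradiol in Ccnd1+/+ (median -0.14) and 11 above 0 in Ccnd1-/- (median 0.31), with 0 called in both. Without both first Ccnd1-/- arrays, the Ccnd1-/- median was 0.03, with 8 above 0. On estradiol, 1 of the 14 was called between the genotypes, where 1.12% of all genes were. It was Aldoc, an aldolase, lower in Ccnd1-/- by a log2 difference of -3.12 ± 0.47 (limma adjusted p = 0.019). The part of cell types and of RNA quality in the Aldoc difference was not tested.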

How the data were processed

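Total RNA of 12 mammary glands was labelled and hybridised to 12 single-colour Affymetrix arrays, 3 per group, each with 45101 probe sets. The deposited values are log2 intensities normalised by the authors; per the submitters' processing notes RMA and limma 2.9.16 were used, and the chip definition and genome build are not given in the sources used here. Groups come from the sample titles. The design text speaks of separate mice, so p-values measure the spread between arrays of different animals, including any difference in the piece of gland taken. Sequencing depth does not apply, and 3 arrays a group set the precision.

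By the platform's annotation, 34945 probe sets name a single gene, 932 name several, 9160 name none and 64 are controls. Only those of a single gene were used, which left Ndufa11, Ndufs6 and the bright probe sets of Ndufb4 out. The 78 members had 161 probe sets (48 members had more than 1), and all 78 matched the RefSeq gene table by symbol or identifier. The members and lists were chosen with earlier results of these data known.

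All comparisons come from 1 fit of 4 group means over all 18193 genes with no filter on dim genes (limma 3.58.1, eBayes, R 4.3.3), with 8 residual and 2.15 prior degrees of freedom. Tests were two-sided, with Benjamini-Hochberg adjustment across all genes tested, and members were called at an adjusted p under 0.05. Scores are means of values centred over the 12 arrays. The fit was tested on simulated data with known log2 changes in the Ccnd1+/+ estradiol group. It called 6% of the genes changed by 0.5, 50% at 1, 42% at -1 and 86% at 2, with 2 false calls. A count of 0 called members is therefore weak evidence of no change at the sizes seen here. Named members are, per comparison, the 10 with the smallest p, the extremes of each complex, members without overlap, complex II and tissue forms; from other lists, called genes or the 2 with the smallest p. Cycs, Nrf1, Ppargc1a and Ucp1 were named for their function after their values were seen.

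Alternatives were the probe set mean per gene, quantile or median scaling, omission of the 40% of genes with the lowest mean, trended and robust eBayes, array weights, a block for the replicate number, fits of the arrays compared, an adjusted p under 0.1, each array left out, another membership (tissue forms and Cox7a2l left out, Ndufa4 in complex IV) and, added after the data were seen, both first Ccnd1-/- arrays left out. Promoter letters were searched in Python 3.11.15, and figures were drawn with matplotlib 3.10.9.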

Additional observations from a re-analysis of the deposited data

How the results depend on the processing

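The count of members called stayed at 0 in every comparison under another probe set rule, the filter on dim genes, both scalings, the fits of the arrays compared and the replicate number as a block. It became 12 for estradiol in Ccnd1+/+, 7 for the average estradiol effect and 1 for genotype on estradiol with array weights, whose estimation stopped before it converged (weights 0.249 to 5.83). For genotype on estradiol, it was 1 (Ndufb4) with trend and robust priors, 1 at an adjusted p under 0.1, and 0 to 1 when 1 array was left out (1 without Ccnd1+/+ placebo array 3); for the average estradiol effect it was 0 to 1 (1 without Ccnd1-/- placebo array 2). The replicate numbers do not pair the arrays: the deviations of same-numbered arrays correlated between -0.74 and 0.66, and 7 of 18 pairs exceeded 0.1. With both first Ccnd1-/- arrays left out, the median of all members was -0.068 for estradiol in Ccnd1-/- and 0.11 for the interaction. Median scaling moved the median of all genes to -0.11 in Ccnd1+/+, 0.19 for genotype on estradiol and 0.14 for the interaction and left the distance of the members from all genes at -0.14, 0.20 and 0.33 by construction, as it shifts every gene of an array alike. With quantile scaling that distance was -0.13, 0.16 and 0.30. Of the named differences, that of Sdhc with estradiol in Ccnd1+/+ (0.01) was -0.12 with median scaling and -0.22 to 0.28 with 1 array left out. Without both first Ccnd1-/- arrays, Sdha was -0.12 for estradiol in Ccnd1-/- and -0.10 for genotype on estradiol, and Sdhc was -0.014 for the latter. With 1 array left out, these ranged from -0.026 to 0.30, -0.10 to 0.23 and -0.014 to 0.37. The cause was not tested. With 3 arrays a group, differences of the size seen here (mostly under 0.5) are hard to tell from the spread between the arrays of a group.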
